A study of Arabidopsis thaliana with 10 samples.

Results

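The cytochrome P450 genes described here are the 25 Arabidopsis thaliana genes whose symbol follows the P450 naming scheme and that had a probe set paired with exactly 1 gene in the platform annotation. Each of the 25 had 1 such probe set, so no choice between probe sets was needed. They make up 10.6% of the 236 genes with such a symbol in the RefSeq gene table, and 25 of the 17481 probe sets tested. Of the 25, 21 belong to the subfamily CYP71B, and CYP78A9, CYP79A2, CYP79C2 and CYP84A4 belong to others. RNA came from roots of 4 groups of plants: bts-3 without iron (-Fe), bts-3 with iron (+Fe), wild type (WT, accession Col) -Fe and WT +Fe. Plants were 2 weeks old, raised on B5 medium, when moved for 72 h to medium without or with iron. There were 3 arrays in each bts-3 group and 2 in each WT group, labelled as biological replicates. The mutant is named for BRUTUS (BTS), a ubiquitin ligase known to hold back responses to low iron. The labels do not describe the bts-3 lesion. BTS itself had no named probe set, and its transcript could not be used to test which plants were mutant.

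Cytochrome P450 enzymes are haem proteins, mostly anchored in the endoplasmic reticulum, that use electrons from a P450 reductase to insert an oxygen atom into a substrate. Plants have large P450 families. The families CYP71, CYP78, CYP79 and CYP84 all lie in the CYP71 clan, which includes many enzymes of specialised and defence metabolism. CYP79 enzymes turn amino acids into aldoximes, as CYP79A2 does with phenylalanine on the way to benzylglucosinolate. CYP71B6 oxidises indole-3-acetonitrile, CYP84A4 acts in the synthesis of arabidopyrones, and CYP78A9 promotes growth of fruits and seeds. For most other CYP71B genes no role is given here. CYP71B30P carries the suffix of a pseudogene in its name.

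Values are log2 expression levels after RMA, which corrects background, gives the probe values of the arrays 1 shared distribution and then combines the probes of each probe set. A difference of 1 on this scale is a doubling. The combined values did not share 1 distribution exactly, and their array medians ran from 5.27 to 5.45. The mean correlation of an array with its group mates ran from 0.969, for bts-3 -Fe replicate 1, to 0.991. Of the root cell type markers listed, 3 root hair genes, EXPA7, EXPA18 and GH9C1, were measured, at 7.40 to 9.57 on all arrays. None of the 6 endodermis, 3 root cap and meristem or 6 xylem and vascular markers had a probe set paired with 1 gene and matched to its locus. Shoot markers were represented by RCA and LHCB4.1, at 6.34 to 8.21. In bulk RNA, fewer cells of a type and less RNA per cell cannot be told apart.

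Most of the P450 probe sets were dim. The mean over all arrays lay below 2.77, the lower quartile of all tested probe sets, for 11 genes, and between 2.77 and the median of 4.93 for 8 more. The other 6 were CYP71B29 (8.52), CYP71B6 (8.32), CYP71B5 (6.64), CYP71B34 (6.51), CYP71B23 (6.33) and CYP71B36 (5.0). RMA values near background have compressed fold changes, and probe sets differ in brightness, so levels are compared here between groups and not between genes. Over the 10 arrays CYP71B5 varied with an SD of 2.36, the fourth highest of the 17481 probe sets, where the median was 0.28. Its range of 6.57 between the lowest and the highest array contrasts with ranges of 0.51, for CYP78A9, to 2.00, for CYP71B34, in the other 24 genes.

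**Figure D1:**
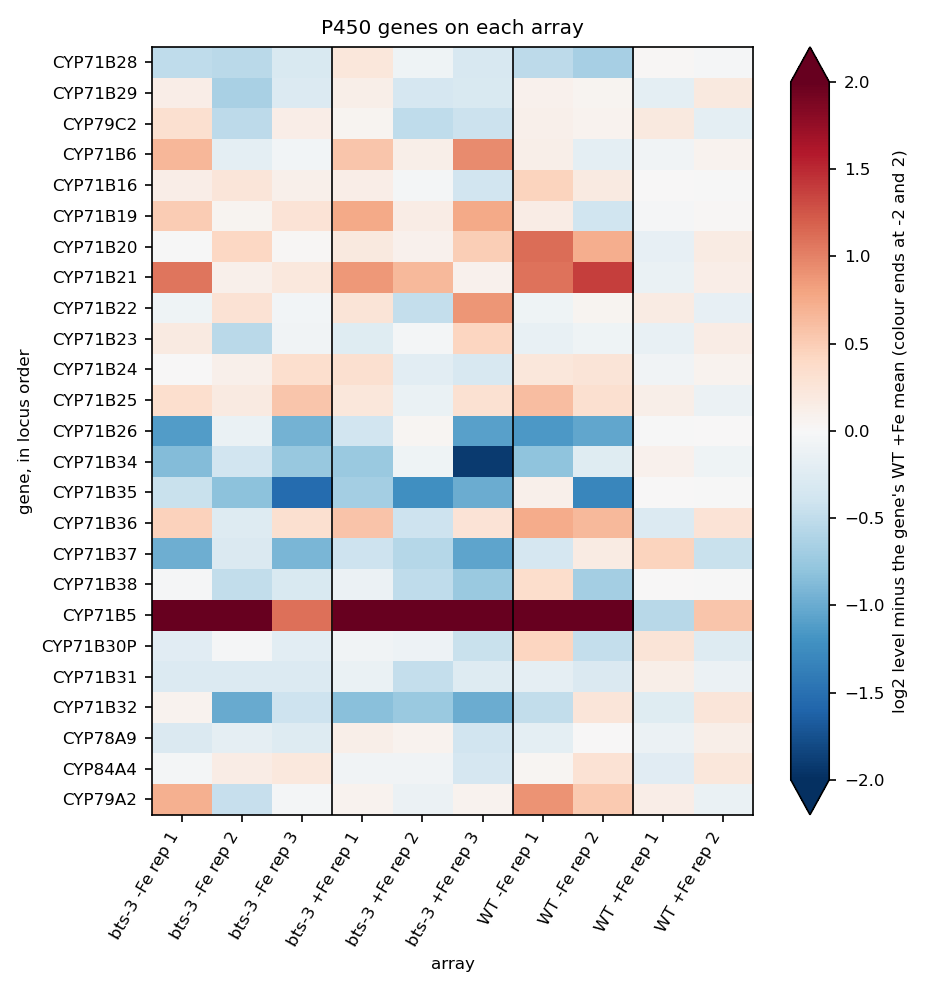
Level of each of the 25 P450 genes (rows, in locus order) on each array (columns, grouped) as the difference from that gene's mean on WT +Fe, on the log2 scale, with colours capped at -2 and 2. CYP71B5 lies above its WT +Fe mean on every array of the other 3 groups.

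Among the P450 genes, CYP71B5 had the largest difference between the WT media. In bts-3 its level was 9.08, 7.72 and 4.44 on -Fe, against 7.35, 7.16 and 5.43 on +Fe. In WT it was 9.35 and 9.15 on -Fe, against 2.78 and 3.89 on +Fe. The bts-3 groups overlapped, with -Fe arrays both above and below the +Fe arrays, and the WT groups did not. Every bts-3 +Fe array lay above both WT +Fe arrays, and every bts-3 -Fe array lay below both WT -Fe arrays. In order of their means the groups were WT -Fe, bts-3 -Fe, bts-3 +Fe and WT +Fe, and the bts-3 groups beside each other in that order did not differ beyond their spread.

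The iron response of WT in CYP71B5, 9.25 ± 0.14 on -Fe against 3.34 ± 0.79 on +Fe (SD, n = 2 each), was a log2 fold change of 5.91 (SE 1.17, 95% interval 3.31 to 8.51), or 60.1-fold. This was the third highest of the 17481 values. WT +Fe replicate 1, at 2.78, lay near the lower quartile of 2.77, and replicate 2, at 3.89, between it and the median of 4.93. With no detection calls it is not known whether these arrays were above background. This fold, and any other set against WT +Fe for this gene, may thus be understated. It did not pass the threshold, a Benjamini-Hochberg adjusted p under 0.05 over all probe sets, in limma's moderated test on all 10 arrays (adjusted p = 0.129). The fit pools the spread of the 4 groups, and CYP71B5 had an SD of 2.39 on bts-3 -Fe and of 1.05 on bts-3 +Fe. Same-numbered bts-3 arrays deviated together from their group means, and with the replicate number as a block in bts-3 alone the adjusted p was 0.00277 (SE 0.56). With the 4 WT arrays alone it was 0.000693. When a single bts-3 -Fe array was left out, it was 0.0279 for replicate 1 and 0.00678 for replicate 3. Over all alternatives the adjusted p ran from 0.000693 to 0.932, the highest without WT +Fe replicate 1. The log2 fold change ran from 5.35 to 6.47.

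In bts-3 the iron response of CYP71B5 was 7.08 ± 2.39 on -Fe against 6.65 ± 1.05 on +Fe (SD, n = 3 each), which gave 0.44 on the log2 scale (SE 0.96, adjusted p = 1 by limma). That fit did not use the replicate numbers. With the block in bts-3 alone the SE was 0.46 and the limma adjusted p 0.88. Within the numbered pairs the difference between -Fe and +Fe was 1.74 in replicate 1, 0.56 in replicate 2 and -1.0 in replicate 3. The pairs thus did not share a direction. With a single -Fe array of bts-3 left out, the log2 fold change was -0.57 for replicate 1, 0.11 for replicate 2 and 1.76 for replicate 3. With a single +Fe array left out, it was 0.79, 0.69 and -0.17 in the same order. The difference between the iron responses, bts-3 minus WT, was -5.47 (SE 1.52, 95% interval -8.83 to -2.12, unadjusted p = 0.00436 and adjusted p = 0.822 by limma), the third lowest of all probe sets. It passed at an adjusted p of 0.0304 with the block in bts-3 alone, and not with the block over all arrays (0.0633).

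On +Fe, CYP71B5 averaged 6.65 ± 1.05 in bts-3 (SD, n = 3) and 3.34 ± 0.79 in WT (SD, n = 2), which gave a value of 3.31 on the log2 scale (SE 1.07, 95% interval 0.94 to 5.68, limma adjusted p = 0.317) that ranked 11 from the top. With only the arrays of these groups it did not pass either (adjusted p = 0.0577). On -Fe it averaged 7.08 ± 2.39 in bts-3 (SD, n = 3) and 9.25 ± 0.14 in WT (SD, n = 2). This gave -2.17 on the log2 scale (SE 1.07, 95% interval -4.54 to 0.20, adjusted p = 0.746 by limma), which ranked 4 from the bottom. Leaving out bts-3 -Fe replicate 3 gave -0.84. The comparisons share groups, so these values are not independent of one another.

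The iron-deficiency gene AT3G12900, which encodes the scopoletin 8-hydroxylase of fraxetin synthesis and was picked with its values known, stood at 12.72, 11.82 and 8.14 on bts-3 -Fe and 11.46, 11.14 and 9.78 on bts-3 +Fe, replicates 1 to 3. It stood at 12.72 and 12.70 on WT -Fe and at 6.61 and 6.43 on WT +Fe. In both genes replicate 3 was the lowest bts-3 array on each medium. The mean level of the 3 measured root hair markers of 5 was lowest in replicate 3 on both bts-3 media, at 8.10 on -Fe and 7.59 on +Fe. It was 8.52 to 8.88 on the other bts-3 arrays, against 9.14 to 9.17 on WT -Fe and 8.96 to 9.17 on WT +Fe. On bts-3 -Fe, EXPA18 and GH9C1 were lowest in replicate 3. EXPA7 stood there at 8.51, 7.95 and 8.18, lowest in replicate 2. The part of the root hair markers in the CYP71B5 values was not tested. The mean of the 2 measured shoot markers of 10 was 6.50, 7.19 and 7.53 on bts-3 -Fe, replicates 1 to 3. This order was opposite to that of CYP71B5. On bts-3 +Fe the mean was 7.47, 7.48 and 7.40. It was 6.41 to 6.81 on WT -Fe, against 7.55 to 8.03 on WT +Fe, so it ran opposite to CYP71B5 in WT. The part of the shoot markers was not tested either.

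**Figure D2:**
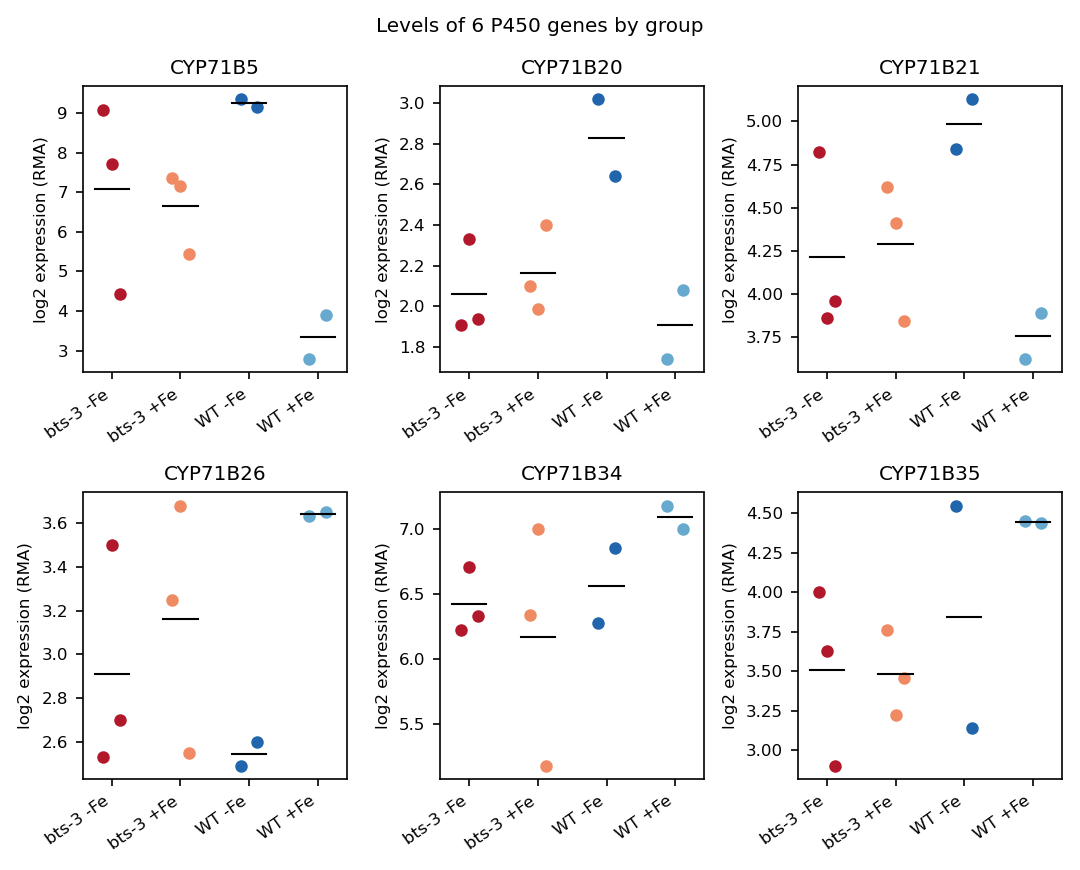
Log2 expression of CYP71B5, CYP71B20, CYP71B21, CYP71B26, CYP71B34 and CYP71B35 on each array (points) with group means (bars), for bts-3 -Fe, bts-3 +Fe, WT -Fe and WT +Fe, each panel with its own axis that does not start at 0. WT -Fe stands above WT +Fe in CYP71B5, CYP71B20 and CYP71B21 and below it in CYP71B26, whereas the bts-3 groups overlap in all 6 panels.

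CYP71B5 is the first gene of a run of 4 P450 genes on chromosome 3 (AT3G53280 to AT3G53305 in the RefSeq table of assembly TAIR10.1), and all 4 were measured. Its neighbours in the run are CYP71B30P, CYP71B31 and CYP71B32, with 1 other gene, AT3G53294, among them. On -Fe against +Fe the 3 neighbours had log2 fold changes of 0.02 to 0.40 in bts-3 and -0.24 to -0.02 in WT, so in WT none followed CYP71B5. In bts-3 all 4 genes of the run had positive values, that of CYP71B5 being 0.44. The 3 neighbours were dim, with means below the lower quartile of all tested probe sets. CYP71B32 stood at 2.34, 2.44 and 2.18 on bts-3 +Fe, against 2.93 and 3.42 on WT +Fe. These groups did not overlap, and the log2 fold change of -0.85 (SE 0.32, adjusted p = 0.444 by limma) had the opposite sign to that of CYP71B5. CYP71B31 was among the dimmest probe sets, between 1.27 and 1.86 on all arrays, and CYP71B30P lay between 1.72 and 2.62.

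The longest run of P450 genes held 13 of the 25 and lies on chromosome 3 between AT3G26125 and AT3G26330, where the RefSeq table lists 19 P450 genes and 10 others. Within it CYP71B20 and CYP71B21, which are adjacent P450 genes, were alike in the difference between the WT media. Within the numbered bts-3 pairs, -Fe minus +Fe was -0.19, 0.34 and -0.46 for CYP71B20. For CYP71B21 it was 0.19, -0.56 and 0.12, of the opposite sign in each pair. Whether these genes differ in bts-3 was not tested. CYP71B20 stood at 1.91, 2.33 and 1.94 on bts-3 -Fe and 2.10, 1.99 and 2.40 on bts-3 +Fe. It stood at 3.02 and 2.64 on WT -Fe, against 1.74 and 2.08 on WT +Fe. Both WT -Fe arrays were thus above the 8 others. CYP71B21 stood at 4.82, 3.86 and 3.96 on bts-3 -Fe and 4.62, 4.41 and 3.84 on bts-3 +Fe. It stood at 4.84 and 5.13 on WT -Fe, against 3.62 and 3.89 on WT +Fe, and again the WT -Fe arrays were the highest, with bts-3 -Fe replicate 1 close below them.

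In bts-3 the iron response, as a log2 fold change, was -0.10 for CYP71B20 (SE 0.20) and -0.08 for CYP71B21 (SE 0.28). In WT it was 0.92 for CYP71B20 (SE 0.24, 95% interval 0.39 to 1.46, limma adjusted p = 0.293) and 1.23 for CYP71B21 (SE 0.35, 95% interval 0.46 to 1.99, adjusted p = 0.333). The difference of the responses, bts-3 minus WT, was -1.03 for CYP71B20 (SE 0.31, limma unadjusted p = 0.00773) and -1.31 for CYP71B21 (SE 0.45, unadjusted p = 0.0141). Neither passed over all probe sets, with adjusted p of 0.850 and 0.917. On -Fe, bts-3 was below WT without overlap in both, by log2 fold changes of -0.77 (SE 0.22) for CYP71B20 and -0.77 (SE 0.32) for CYP71B21. CYP71B20 was among the dim probe sets, with 13.5% of those tested dimmer. P450 genes of a run can be alike in sequence, and whether their probes separate them was not tested. The genes on both sides, CYP71B19 and CYP71B22, had WT values of -0.13 (SE 0.27) and -0.01 (SE 0.36). Both were dim too, with 12.4% and 7.75% of the tested probe sets dimmer.

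CYP71B26, in the same run, ran the other way. It stood at 2.53, 3.50 and 2.70 on bts-3 -Fe and 3.25, 3.68 and 2.55 on bts-3 +Fe, and at 2.49 and 2.60 on WT -Fe, against 3.63 and 3.65 on WT +Fe. The WT arrays of each medium lay close together and apart from the other medium, while the bts-3 arrays spread over both levels on both media. The log2 fold change was -0.25 in bts-3 (SE 0.31) and -1.10 in WT (SE 0.38, 95% interval -1.93 to -0.27, limma adjusted p = 0.446). Of the other genes of the run, CYP71B36 had a WT value of 0.70 (SE 0.34), with 5.50 and 5.41 on WT -Fe against 4.49 and 5.03 on WT +Fe. CYP71B25 had 0.46 (SE 0.23), CYP71B16 0.31 (SE 0.21) and CYP71B24 0.25 (SE 0.24), with limma adjusted p of 0.632, 0.746 and 0.833. All 3 had WT groups that did not overlap, as had 44.3% of all probe sets. All 3 were dim, with means below the lower quartile of all tested probe sets. Only 0.132% of those tested were dimmer than CYP71B24.

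CYP71B34 and CYP71B35, adjacent genes near the far end of the run, had negative values for bts-3 against WT with iron present. CYP71B34 stood at 6.34, 7.0 and 5.18 on bts-3 +Fe, against 7.18 and 7.0 on WT +Fe. Its log2 fold change was -0.92 (SE 0.43, limma adjusted p = 0.577), and it was -0.42 when the lowest of these arrays, bts-3 +Fe replicate 3, was left out. The groups met at 7.0 without overlap. CYP71B35 stood at 3.76, 3.22 and 3.46 on bts-3 +Fe, against 4.45 and 4.44 on WT +Fe, a log2 fold change of -0.97 (SE 0.40, adjusted p = 0.510). Their neighbour CYP71B37 had -0.67 (SE 0.32), with groups that overlapped, at 3.79, 3.63 and 3.15 in bts-3 and 4.64 and 3.76 in WT. CYP71B36, which lies between CYP71B35 and CYP71B37, had a value of 0.14 (SE 0.31). On -Fe the genotype values were -0.15 (SE 0.43) for CYP71B34, -0.34 (SE 0.40) for CYP71B35 and -0.65 (SE 0.32) for CYP71B37. CYP71B23, also of the run, had values within 0.20 of 0 in all 5 comparisons.

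CYP71B28, at 4.09, 4.06 and 4.29 on bts-3 -Fe and 4.83, 4.51 and 4.28 on bts-3 +Fe, stood at 4.08 and 3.94 on WT -Fe against 4.63 and 4.57 on WT +Fe. Its iron response had the same sign in both genotypes, -0.39 in bts-3 (SE 0.18) and -0.59 in WT (SE 0.22), with limma adjusted p of 1 and 0.491. Its neighbour on chromosome 1, the bright CYP71B29, had values of -0.09 (SE 0.23) and 0.07 (SE 0.28). CYP71B6, the indole-3-acetonitrile oxidase, stood at 8.68, 8.24 and 9.07 on bts-3 +Fe, against 8.05 and 8.19 on WT +Fe. The groups did not overlap, and the log2 fold change was 0.54 (SE 0.30, limma adjusted p = 0.665). CYP71B38 had -0.46 (SE 0.30) in the same comparison and CYP71B19 had 0.55 (SE 0.25), also without overlap.

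The 4 genes of other subfamilies had no value over 1 in size in any comparison. CYP79A2, of benzylglucosinolate synthesis, stood at 3.31, 2.13 and 2.56 on bts-3 -Fe and 2.66, 2.47 and 2.66 on bts-3 +Fe, and at 3.50 and 3.12 on WT -Fe against 2.73 and 2.46 on WT +Fe. Its iron response was 0.08 in bts-3 (SE 0.27) and 0.71 in WT (SE 0.33, limma adjusted p = 0.603). CYP84A4, of arabidopyrone synthesis, was the only P450 gene whose bts-3 groups did not overlap between the media, at 4.30, 4.50 and 4.56 on -Fe against 4.28, 4.28 and 4.01 on +Fe. That log2 fold change was 0.26 (SE 0.18, limma adjusted p = 1), and the WT value was 0.16 (SE 0.22). CYP78A9 and CYP79C2 had iron responses of -0.18 (SE 0.18) and 0.28 (SE 0.25) in bts-3 and of -0.09 (SE 0.22) and 0.08 (SE 0.30) in WT.

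Across the 25 genes, the WT iron response was positive in 11 and negative in 14, with a median of -0.02 beside 0.01 over all probe sets. Of all probe sets 9051 were positive and 8430 negative. No P450 gene passed with limma, where 0.0286% of all probe sets did (5 of 17481). Unadjusted p was under 0.05 in 5 of the 25 genes, CYP71B5, CYP71B20, CYP71B21, CYP71B26 and CYP71B28, or 20%, against 8.37% of all probe sets. The WT groups did not overlap in 12 genes (48%), 8 higher and 4 lower, near the 44.3% of all probe sets (23.2% higher, 21.1% lower). Sizes over 1 were reached by 3 genes (12%), against 2.54% of all probe sets.

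In bts-3 the iron response was positive in 14 and negative in 11, with a median of 0.03 beside 0.02 over all probe sets. Of all probe sets 9520 were positive and 7961 negative. No P450 gene passed with limma (0.0229% of all probe sets did), and 1 had an unadjusted p under 0.05, or 4% against 4.96%. Groups without overlap were found for 1 gene (4%), against 8.26% of all probe sets (4.98% higher, 3.28% lower). No gene had a size over 1, which 1.14% of all probe sets had. All 3 numbered pairs moved the same way in 4 genes: CYP71B25, CYP71B38 and CYP84A4 were higher on -Fe and CYP71B19 was lower, where 17% and 12.5% of all probe sets were. Apart from CYP71B5, the 95% intervals for the 24 other genes lay between -0.99 and 1.09. These intervals come from the fit without a replicate block.

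**Figure D3:**
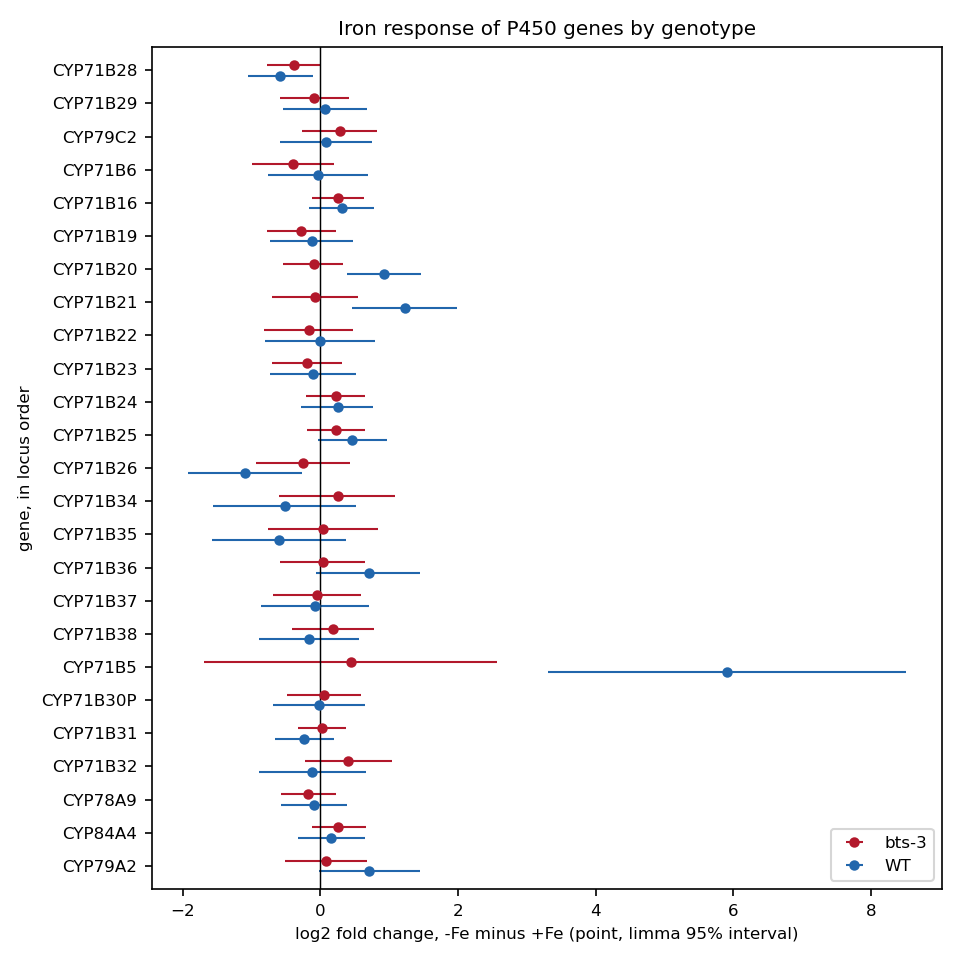
Log2 fold change, -Fe minus +Fe, of the 25 P450 genes in bts-3 and in WT, with 95% intervals from limma. CYP71B5 in WT, at 5.91, stands apart. Those of CYP71B20, CYP71B21, CYP71B26 and CYP71B28 in WT also lie clear of 0, without adjustment over all probe sets.

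With iron, bts-3 against WT was positive in 9 genes and negative in 16, with a median of -0.07 beside -0.01 over all probe sets. Of all probe sets 8582 were positive and 8899 negative. No P450 gene passed with limma, where 0.269% of all probe sets did. CYP71B5, CYP71B32 and CYP71B35 had an unadjusted p under 0.05, 12% against 8.93%, and the groups did not overlap in 8 genes, 3 higher and 5 lower, 32% against 29.3% (13.5% higher, 15.8% lower). Only CYP71B5 had a size over 1, or 4% against 2.9%. Without iron, 5 were positive and 20 negative, with a median of -0.13 beside -0.01. Of all probe sets 8384 were positive and 9097 negative. No gene passed, as was so for all probe sets (0%). CYP71B20 and CYP71B21 had an unadjusted p under 0.05, 8% against 6.65%, and 4 genes did not overlap, all lower in bts-3: CYP71B5, CYP71B20, CYP71B21 and CYP71B36 (16% against 19.5%, of which 8.28% higher and 11.3% lower). Only CYP71B5 had a size over 1, or 4% against 1.19%. For the difference of the iron responses no P450 gene passed (0.00572% of all probe sets did). CYP71B5, CYP71B20 and CYP71B21 had an unadjusted p under 0.05, 12% against 4.46%, and the same 3 had a size over 1, or 12% against 3.47%.

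**Figure D4:**
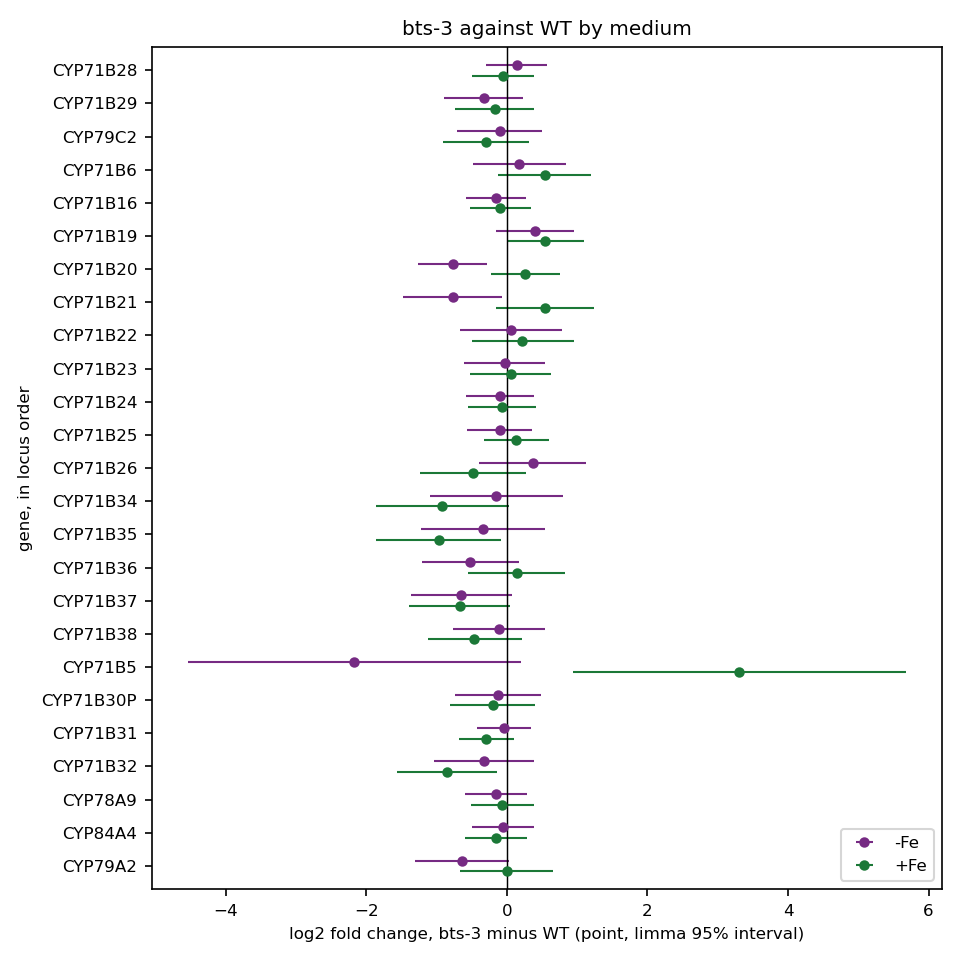
Log2 fold change, bts-3 minus WT, of the 25 P450 genes on -Fe and on +Fe, with 95% intervals from limma. CYP71B5 is the gene whose points lie far on opposite sides of 0, at -2.17 on -Fe and 3.31 on +Fe. Its interval on -Fe, -4.54 to 0.20, includes 0.

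Partner genes were little represented. Of 17 listed genes of haem synthesis and breakdown, 4 were measured, and neither the 2 P450 reductases nor the 5 cytochrome b5 genes were analysed here. None of the 4 passed with limma in any comparison. HEME2, a uroporphyrinogen decarboxylase, had an iron response of 0 in bts-3 (SE 0.16) and of -0.47 in WT (SE 0.20, limma adjusted p = 0.572), the largest of the 4 in WT, with 5.83 and 5.76 on WT -Fe against 6.27 and 6.26 on WT +Fe. HEMA2, a glutamyl-tRNA reductase, had -0.10 in bts-3 (SE 0.27) and 0.38 in WT (SE 0.33). HEMA3 and HEME1 had 0.03 and -0.07 in bts-3 and 0.28 and -0.02 in WT.

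**Figure D5:**
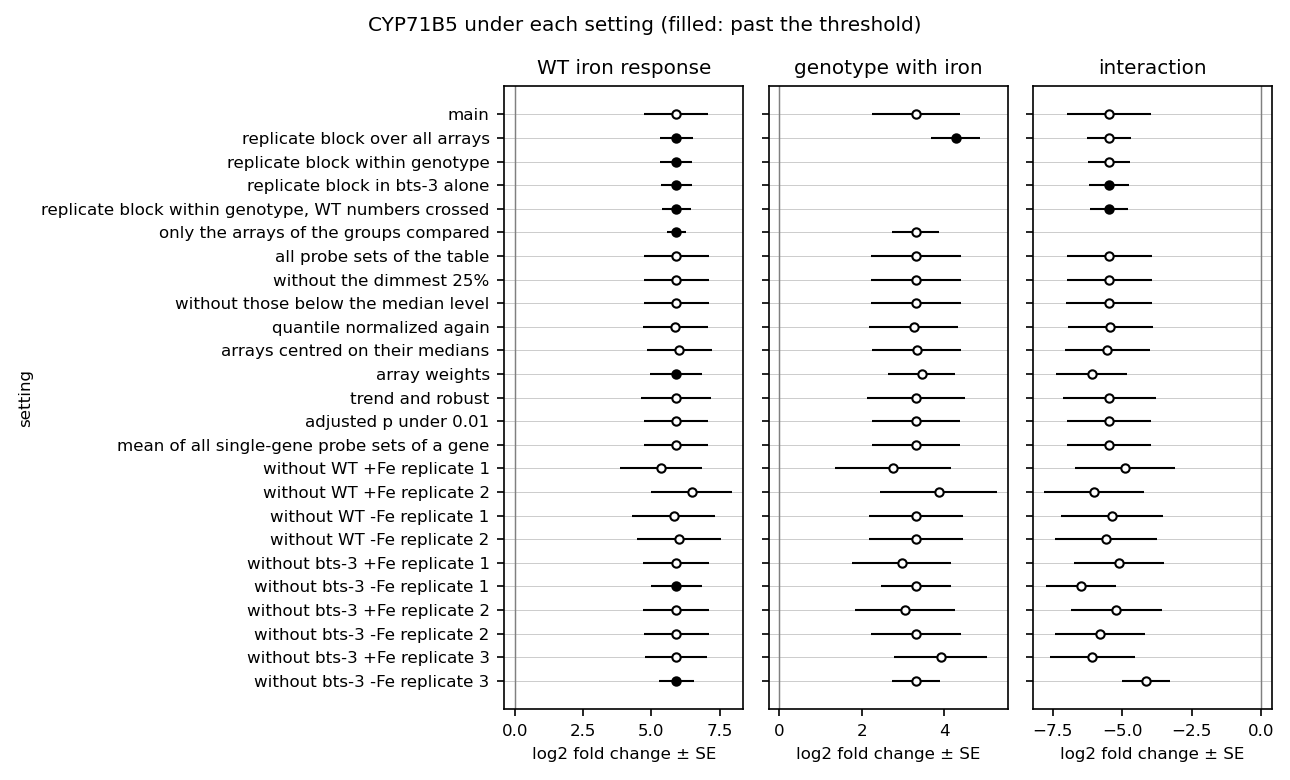
Log2 fold change ± SE of CYP71B5 under each setting, for the WT iron response, bts-3 against WT with iron, and the difference of the iron responses (bts-3 minus WT). Filled points passed the threshold. The WT value stays between 5.35 and 6.47, and it passed under some settings and not under others.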

How the data were processed

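The authors deposited a table of log2 values with 1 column per array; the submitters' processing notes name RMA and Affymetrix Expression Console. No version, detection call or genome build is given in the sources used here, so no coordinates are printed. Per the labels, 100 ng of RNA was labelled per array. The table held 28583 probe sets, of which 16722 were paired with 1 gene, 759 with several and 11102 were unnamed here. Gene names, loci and neighbours came from the RefSeq table of TAIR10.1, matched by gene ID for 16574 probe sets.

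The 17481 named probe sets of all 10 arrays were fitted with 1 mean per group in limma 3.58.1 (R 4.3.3, lmFit and eBayes, 6 residual and 4.57 prior degrees of freedom), without a filter on dim values. The 5 comparisons were two-sided, and the threshold was 0.05 for the p adjusted by Benjamini and Hochberg's method over all probe sets of a comparison. The fit was tested for its estimated changes on simulated data with independent errors and the same spread in every group. Those data held no replicate pairing and no unequal spread of groups, so the test does not bear on the calls here. Exact permutation tests could not go below 0.1 with 3 arrays against 3 or 2, or below 0.333 with 2 against 2, and were not used. The small number of arrays limits the precision. The labels call the replicates biological without saying what separated them.

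Named genes were, per comparison, called P450 genes, of those without overlap the top 6 and bottom 6 by fold change (4 and 4 for the interaction), and measured members of role lists of 91 P450 genes, of which 5 were measured. The remaining P450 genes are named so that all 25 are accounted for, and AT3G12900 was added after its values were seen. A run of P450 genes is a stretch with at most 8 other genes between neighbours. The members and lists were chosen with earlier results of these data known. Same-numbered bts-3 arrays correlated in their deviations from group means at r = 0.302, 0.511 and 0.389, so the numbers pair them, by the values and not the labels. The WT numbers gave -0.107. Alternatives were the replicate block, the arrays fitted, filters, normalization, array weights, the variance model, the threshold, averaging of probe sets and leaving out each array.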

Additional observations from a re-analysis of the deposited data

Results flagged for a closer look

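CYP71B5 was the P450 gene whose genotype effect ran in opposite directions on the 2 media without overlap of any arrays: every bts-3 -Fe array lay below both WT -Fe arrays (log2 fold change -2.17), and every bts-3 +Fe array lay above both WT +Fe arrays (3.31). The difference of these effects, equal to the difference of the iron responses, was -5.47 (limma unadjusted p = 0.00436, adjusted p = 0.822). Without bts-3 -Fe replicate 3, the lowest array of its group, the value on -Fe was -0.84 and the difference -4.15. Of all probe sets, 19.5% did not overlap between the genotypes on -Fe and 29.3% on +Fe. The share without overlap on both media in opposite directions was not counted.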

How the results depend on the processing

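The count of P450 genes past the threshold was 0 in all 5 comparisons. It was 1, CYP71B5, for the WT iron response with the replicate block over all arrays, within genotype or in bts-3 alone, with only the WT arrays, with array weights, and without bts-3 -Fe replicate 1 or 3, so that it ran from 0 to 1 when arrays were left out. It was also 1, CYP71B5, for the interaction under the block in bts-3 alone, and with iron under the block over all arrays (4.27, adjusted p = 0.0187). Same-numbered bts-3 +Fe and WT +Fe arrays deviated from their group means with r = -0.0289 and -0.0723, so the numbers do not pair the +Fe groups. Between same-numbered bts-3 -Fe and WT -Fe arrays r was 0.303 for replicate 1 and 0.261 for replicate 2. With WT numbers crossed in the block within genotype, an alternative chosen after seeing the data, the count was 1 for the WT iron response, 0 for bts-3 and 1 for the interaction. The causes were not tested. The replicate block changed no other call of a named P450 gene. Counts over all probe sets moved more: 5 to between 0 and 157 for WT, 4 to between 1 and 44 for bts-3, 47 to between 4 and 279 with iron, 0 to between 0 and 8 without iron, and 1 to between 0 and 35 for the interaction.

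Of 61 results for named genes, 58 never passed, and 20 turned sign in some setting, none of them past the threshold there. With the block over all arrays the genotype value with iron was -0.06 for CYP71B23, 0.02 for CYP78A9 and 0.01 for CYP79A2. With quantile normalization the value was -0.01 for CYP79A2 in bts-3 and 0.03 for CYP78A9 in the interaction. With arrays centred on their medians, which shifts the median of all WT responses by 0.11, WT values were 0 for CYP71B23, 0.07 for CYP71B6 and 0.02 for CYP78A9, and CYP79A2 was 0.02 with iron. Array weights gave -0.20 for CYP71B5 and -0.11 for CYP79A2 in bts-3. With single arrays left out, ranges for the WT iron response were -0.25 to 0.03 (CYP71B23), -0.19 to 0.11 (CYP71B6), -0.21 to 0.03 (CYP78A9) and -0.06 to 0.39 (CYP84A4). In bts-3 they were -0.24 to 0.01 (CYP71B20), -0.38 to 0.10 (CYP71B21), -0.56 to 0.01 (CYP71B26), -0.57 to 1.76 (CYP71B5) and -0.25 to 0.34 (CYP79A2). With iron they were -0.14 to 0.20 (CYP71B23), -0.19 to 0.09 (CYP78A9), -0.14 to 0.13 (CYP79A2) and -0.38 to 0.07 (CYP84A4), and without iron -0.19 to 0.16 (CYP71B23), -0.09 to 0.35 (CYP71B6) and -0.18 to 0.06 (CYP84A4). For the interaction they were -0.25 to 0.11 (CYP71B23), -0.07 to 1.34 (CYP71B35), -0.24 to 0.04 (CYP78A9) and -0.12 to 0.33 (CYP84A4). Only 14 of the 25 genes were left without the dimmest 25% of probe sets, and 6 without those below the median level. No P450 gene had several probe sets, so averaging them changed no value of theirs.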
